A study of Mus musculus with 12 samples.

Results

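The Hox cluster genes of mouse, 39 genes with symbols Hoxa, Hoxb, Hoxc or Hoxd followed by a number, were followed by cluster and position in macrophage RNA-seq libraries, out of 55573 genes in the count table. The members were chosen by symbol alone, with no low-count filter. Values are given for 38 of them, and counts of Hox genes below are over these 38. Of the 38 genes, 29 had at least 1 read count in the 12 libraries, 18 had at least 10 counts, and 9 were listed at 0 in every library. The libraries were made from total RNA of sorted CD11b+ F4/80+ bone marrow derived macrophages (MΦs) of C57BL/6 mice, in 4 groups of 3. The wt MΦs and BMI1-KO MΦs were cultured alone, and the wt MM-MΦs and BMI1-KO MM-MΦs were taken after co-culture with myeloma cells. The wt mice were BMI1fl/fl and the BMI1-KO mice were BMI1fl/fl Mx1-Cre, and both received poly I:C at 6 to 8 weeks of age, as 5 intraperitoneal doses of 15 mg/kg. Mx1-Cre is switched on by interferon, which poly I:C induces, so deletion could occur in every interferon-responsive cell of the animal and not in macrophages alone. Bone marrow was taken 4 weeks after the last dose, and adherent cells were cultured with M-CSF at 5 ng/mL for 7 days to give MΦs. The co-culture of MM-MΦs lasted a further 48 hours and used 5TGM1, a mouse myeloma cell line. The labels do not say whether the 3 libraries of a group came from separate mice or cultures, so the errors below measure the spread between these libraries.

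Hox genes encode homeodomain transcription factors that give cells their position along the body axis. Within a cluster they lie in the order in which they are used from head to tail, low numbers being anterior and high numbers posterior. In blood formation several Hoxa and Hoxb genes are active in stem and progenitor cells and are shut off as cells mature. BMI1 is a subunit of Polycomb repressive complex 1, which ubiquitinates histone H2A and holds Hox genes silent in tissues where they are not used, and its sites are often start regions rich in the dinucleotide CG. The comparisons between genotypes ask how the transcriptome of MΦs and MM-MΦs differs without BMI1, and those between cultures ask what co-culture with myeloma cells changes.

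Start regions of 5 Hox genes are shown because these genes span the patterns of counts described below. Hoxa5, Hoxa7 and Hoxa10 had most of their reads in BMI1-KO libraries, Hoxb4 had similar counts in all groups, and Hoxa13 had none. Each line gives the 60 bases before the annotated start, 5′ to 3′ on the gene's strand, from RefSeq on GRCm38.p6, with CG in capitals. None of these windows overlaps an annotated exon.
Hoxa5, chr6:52204588-52204647, minus strand: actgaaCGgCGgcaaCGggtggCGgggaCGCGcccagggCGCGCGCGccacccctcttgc
Hoxa7, chr6:52218574-52218633, minus strand: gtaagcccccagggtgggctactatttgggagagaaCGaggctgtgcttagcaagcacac
Hoxa10, chr6:52234940-52234999, minus strand: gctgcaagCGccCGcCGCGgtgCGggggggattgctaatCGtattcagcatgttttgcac
Hoxa13, chr6:52260881-52260940, minus strand: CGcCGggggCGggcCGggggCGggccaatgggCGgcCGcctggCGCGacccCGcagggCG
Hoxb4, chr11:96318207-96318266, plus strand: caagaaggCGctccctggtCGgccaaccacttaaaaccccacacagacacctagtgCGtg
Over the whole 250 bases before the start, Hoxa13 held 35 CG dinucleotides, Hoxa5 held 28, this start of Hoxa10 held 20, Hoxb4 held 14 and Hoxa7 held 7. The 24 start regions matched to 22 Hox genes held 2 to 35, with a median of 12.5, against a median of 6 over all 32851 start regions of the table. The richest of the 5 was the start of a gene without a read in any group, and the poorest was this start of Hoxa7, which lies inside the annotated gene. The start of Hoxa10 shown also lies inside its gene, and the other start of Hoxa10, at the 5′ end of the annotated gene, held 7 as well. The PBX-HOX motif TGATTNAT, searched on both strands of the 300 bases from 250 before to 50 after the start, occurred in 2 of the 24 Hox regions, those of Hoxa2 and of 1 start of Hoxd11, and in 3.22% of all regions.

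Library totals were 9662279 to 11142768 counts, and 85 to 230 of them per library fell on the 38 Hox genes, so most members rest on few reads. The sorted cells carried macrophage markers, with 10 of 10 detected and a summed level of 13675 to 19137 CPM (counts scaled to library size). Bmi1 had 251 to 364 counts in the 6 wt libraries and was listed at 0 in the 6 BMI1-KO libraries. The library totals behind the authors' FPKM exceeded the summed counts by 512 to 734 in BMI1-KO libraries and matched them in wt libraries, so the listed 0 was not used as a check of the labels. Cdkn2a, a gene that BMI1 is known to repress, had 0 to 7 counts in wt and 108 to 230 in BMI1-KO libraries, and rose in MΦs (log2 fold change 5.81, SE 0.65, adjusted p = 0.00835 in edgeR). In MM-MΦs it also passed (8.51, SE 0.83, edgeR adjusted p = 0.00205). In the edgeR fit of summed counts Cdkn2a did not pass (6.70, SE 0.74, adjusted p = 0.104). A gene with a large difference can therefore go uncalled in that fit. On the first principal component of log2 CPM, which held 36.4% of the variance, the 4 libraries numbered 3 lay at 35.3 to 58.8 and the 4 numbered 1 at −55.2 to −31.6. In both wt groups the library numbered 3 stood apart from the other two, whereas in both BMI1-KO groups the library numbered 1 lay farther from number 2 than number 3 did.

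Hox expression in these macrophages was low and rested on a few genes. Hoxb4 and Hoxb3 together held 84.1% of the counts of the 38 genes in wt libraries and 56.7% in BMI1-KO libraries. By the authors' FPKM, which is per length, Hoxb4 was highest in wt with a mean of 2.22 ± 0.46 (SD over 6 libraries), followed by Hoxb3 with 0.527 ± 0.154 and Hoxa4 with 0.158 ± 0.165. Hoxb4 was above Hoxb3 in 6 of 6 wt libraries, Hoxb3 above Hoxa4 in 5, and Hoxa4 above the next gene, Hoxa6, in 4. In BMI1-KO libraries the FPKM order was Hoxb4 with 2.57 ± 0.50, Hoxb3 with 0.925 ± 0.358, Hoxa7 with 0.873 ± 0.456, Hoxa4 with 0.518 ± 0.313 and Hoxb7 with 0.41 ± 0.29. There Hoxb4 was above Hoxb3 in 6 of 6 libraries, while Hoxb3 was above Hoxa7 in 3, Hoxa7 above Hoxa4 in 4 and Hoxa4 above Hoxb7 in 3. Below Hoxb3, neighbours in either order did not differ beyond their spread, nor did Hoxb3 and Hoxa7 in BMI1-KO. Over all 12 libraries the 5 highest by mean FPKM were Hoxb4, Hoxb3, Hoxa7, Hoxa4 and Hoxb7, of which 4 were among the 5 highest by CPM.

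Over both genotypes, at least 1 read was found for all 15 central genes (positions 4 to 8), 4 of 7 anterior genes (positions 1 to 3) and 10 of 16 posterior genes (positions 9 to 13). At least 10 counts were found for 12 of the central, 3 of the anterior and 3 of the posterior genes. Of the 15 central genes, 6 had reads in BMI1-KO libraries alone and 1 in wt libraries alone. Of the Hoxb genes, 5 had reads in BMI1-KO libraries alone and 0 in wt libraries alone. Some of these rest on very few reads, with 1 count for Hoxc5, 2 each for Hoxb8 and Hoxb9, and 5 in a single library for Hoxd4. No share over all genes was computed for reads in 1 genotype alone, so these numbers describe the members and are no test. The Hoxa cluster on chromosome 6 had counts for 9 of 10 genes, the Hoxb cluster on chromosome 11 also for 9 of 10, the Hoxc cluster on chromosome 15 for 8 of 9, and the Hoxd cluster on chromosome 2 for 3 of 9. With at least 10 counts it was 7, 7, 3 and 1 genes in the same order. The 9 genes listed at 0 were Hoxa13, Hoxb1, Hoxc12, Hoxd1, Hoxd3, Hoxd9, Hoxd11, Hoxd12 and Hoxd13. A gene with no count in a group could still have had up to 3 counts there by counting error alone. In summed counts, the 6 wt and the 6 BMI1-KO libraries held 50 and 346 Hoxa counts, 505 and 730 Hoxb counts, 29 and 45 Hoxc counts, and 7 and 13 Hoxd counts. Reads covered 14 Hox genes in wt MΦs and 16 after their co-culture, and 22 in BMI1-KO MΦs and also 22 after theirs.

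**Figure D1:**
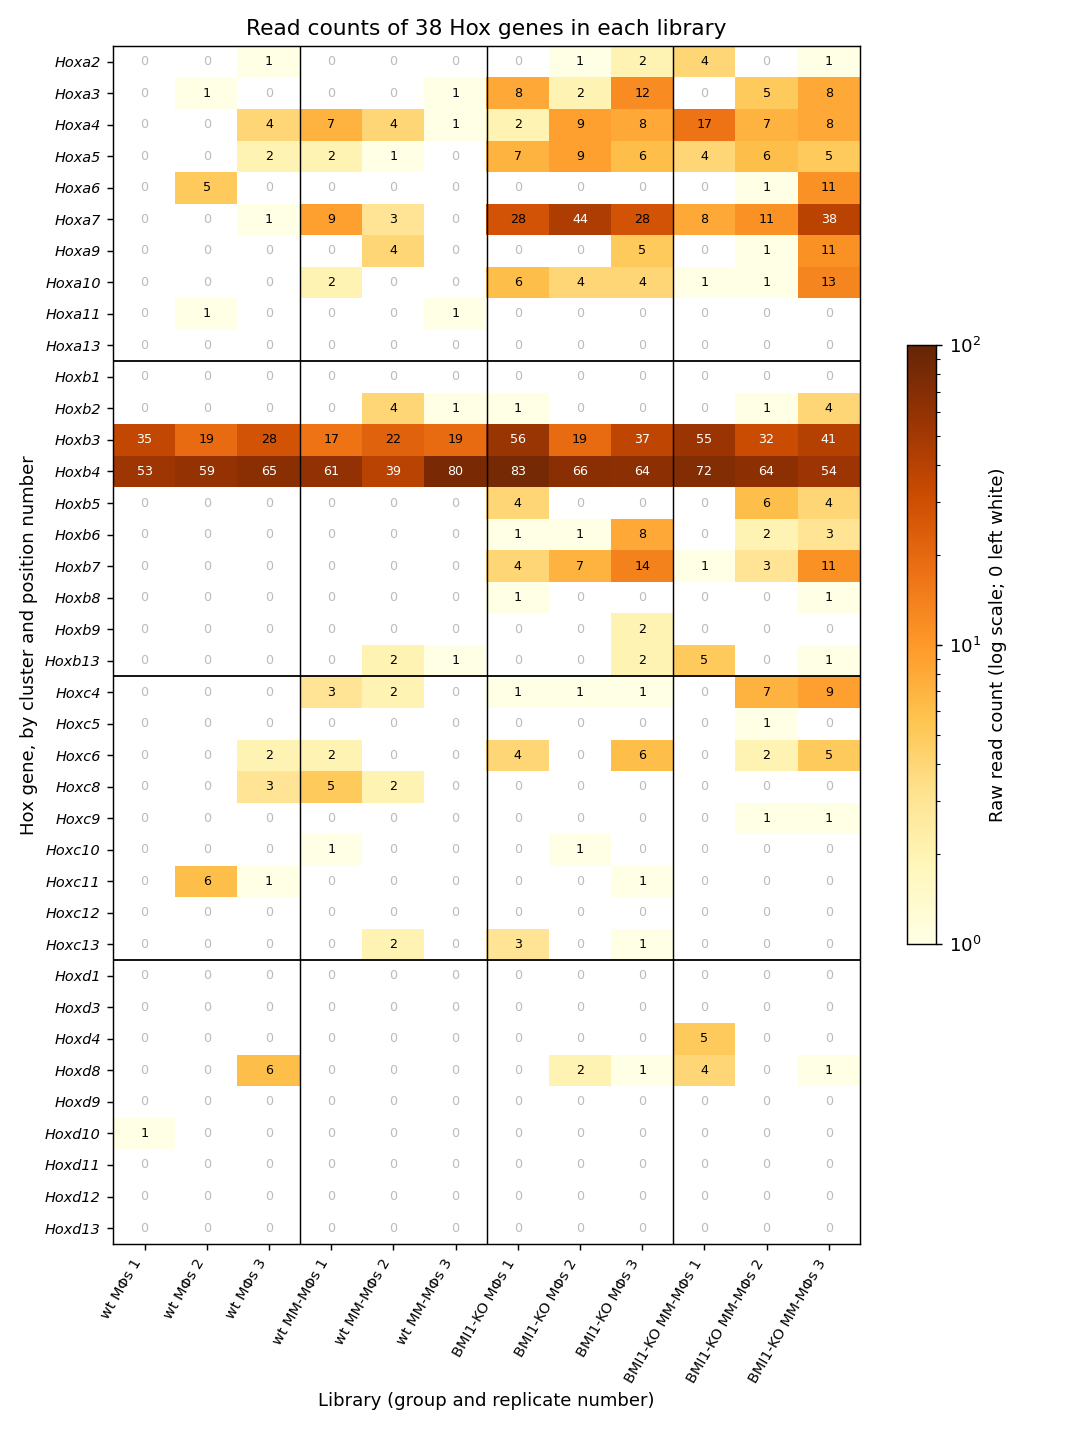
Raw read counts of 38 Hox genes (rows, by cluster and position number) in each of the 12 libraries (columns), on a log colour scale with 0 left white. Hoxb3 and Hoxb4 have reads in all 12 libraries, while Hoxa3 to Hoxa10 and Hoxb5 to Hoxb7 have most of their reads in the 6 BMI1-KO columns.

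No Hox gene passed an adjusted p of 0.05 in edgeR in any of the 6 comparisons made. In BMI1-KO MΦs against wt MΦs, 0 of 3 Hox genes tested passed, where 0.0493% of 14197 genes did, and 1 had an unadjusted p under 0.05, against 5.77% of all genes. Between the MM-MΦs of both genotypes it was 0 of 3 against 0.0634% of all genes, with 2 at an unadjusted p under 0.05 (5.02% of all genes). With the MΦ and MM-MΦ counts of a genotype and number summed, 0 of 5 Hox genes passed, against 0.0135% of 14805 genes, with 3 at an unadjusted p under 0.05 (4.76% of all genes). These 3 were Hoxa4, Hoxa5 and Hoxa7, and Hoxa7 was also among those in MΦs and in MM-MΦs. All 3 genes passed the low-count filter through their BMI1-KO reads and could hardly be lower in BMI1-KO. The shares at an unadjusted p under 0.05 therefore describe the members and are no test. DESeq2 called 1 Hox gene, Hoxa7, in the first comparison, where it called 0.563% of all genes, and the same gene on summed counts, where it called 0.932%, but no Hox gene between genotypes in MM-MΦs (0.627% of all genes), with co-culture in wt (0.409%) or in BMI1-KO (0.641%), or in the interaction (0.00%). The limma-voom fits called 0 Hox genes in the 5 comparisons in which they were run. Of all genes they called 0.0563% between genotypes in MΦs, 0.0634% in MM-MΦs, 0.0141% with co-culture in wt, 0.176% with co-culture in BMI1-KO and 0.00% in the interaction.

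The genes that passed the low-count filter of the fits by group come first. Hoxb3 (chr11:96323326-96347930), which with Hoxb4 takes part in the renewal of blood stem cells, had 35, 19 and 28 counts in wt MΦs and 17, 22 and 19 in wt MM-MΦs. In BMI1-KO it had 56, 19 and 37 counts in MΦs and 55, 32 and 41 after co-culture. The 3 BMI1-KO MM-MΦ libraries all lay above the 3 wt MM-MΦ libraries, but the log2 fold change of 1.17 (SE 0.44) did not pass (edgeR adjusted p = 0.812), and MΦs of the genotypes overlapped. Of the exon bases of Hoxb3, 52.9% are shared with the opposite-strand gene Hoxb3os, and the strand setting of the counting is not given. Hoxb3os was not among the 13 other genes inside the clusters with a count, so no reads were given to it. Reads in the shared part could have been left uncounted or given to Hoxb3, so the counts and FPKM of Hoxb3 could be too low.

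Hoxb4 (chr11:96318267-96321638), a factor used to expand blood stem cells in culture, shares no exon base with another gene. It had 53, 59 and 65 counts in wt MΦs and 61, 39 and 80 counts in wt MM-MΦs. Without BMI1, MΦs held 83, 66 and 64 counts and MM-MΦs 72, 64 and 54. The groups overlapped, and with 760 counts this was the member measured most deeply. Over the 6 libraries of each genotype the ratio of BMI1-KO to wt was 1.143, with a 95% counting interval of 0.989 to 1.32, and on summed counts the log2 fold change was 0.22 (SE 0.23, edgeR adjusted p = 0.99984).

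Hoxa7 (chr6:52214491-52221854), a central gene known for its high level in leukaemias with Kmt2a fusions, had the largest log2 fold changes between genotypes of the 3 genes tested by group. It had 0, 0 and 1 counts in wt MΦs against 28, 44 and 28 in BMI1-KO MΦs, so the groups did not overlap and the BMI1-KO MΦ mean was 3.23 ± 0.82 CPM (SD, n = 3) against 0.0309 ± 0.0536. The wt MM-MΦs had 9, 3 and 0 counts against 8, 11 and 38 without BMI1, where the lowest BMI1-KO library lay below the highest wt library and the libraries numbered 3 set most of the difference. The log2 fold change was 6.21 in MΦs (SE 1.21, edgeR adjusted p = 0.198) and 2.15 in MM-MΦs (SE 0.89, edgeR adjusted p = 0.935). As a ratio of counts the MΦ difference was 101, with a 95% counting interval of 17.6 to 4012, since wt rests on 1 read. In DESeq2 the MΦ difference passed (log2 fold change 6.55, SE 1.43, adjusted p = 0.00228). On summed counts it was 3.53 (SE 0.67) with an edgeR adjusted p of 0.426 and a DESeq2 adjusted p of 0.000191, and in 1 edgeR fit to all 12 libraries, where 0.648% of genes passed, it was 4.18 with an adjusted p of 0.0338. That fit takes the MΦ and MM-MΦ libraries of a number as independent, although their deviations were correlated. The call on Hoxa7 therefore depended on the test. Of its exon bases, 20.4% are shared with the opposite-strand gene Hoxaas3, which had 11 counts in wt and 2 in BMI1-KO libraries.

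Co-culture moved no Hox gene past the threshold in either genotype. The edgeR fits called 0 of 3 in wt, where 0.0916% of all genes passed and 1 Hox gene had an unadjusted p under 0.05 (1.99% of all genes), and 0 of 3 in BMI1-KO, where 0.190% passed and no Hox gene had an unadjusted p under 0.05 (2.94% of all genes). The gene in wt was Hoxa7, whose log2 fold change was 3.22 in wt MM-MΦs against wt MΦs (SE 1.40, edgeR adjusted p = 1) and −0.84 with co-culture in BMI1-KO (SE 0.78, edgeR adjusted p = 0.999864). The interaction, which tests whether the genotype difference differs between cultures, was −4.06 for Hoxa7 (SE 1.60, unadjusted p = 0.0272, edgeR adjusted p = 0.999988). Across its alternatives the Hoxa7 interaction was −5.88 to −2.70, with −2.76 in limma-voom (unadjusted p = 0.094). The Hoxa7 co-culture value in wt was 1.75 to 5.05 across its alternatives. No gene of 14197 passed the interaction in edgeR (0.00%) or in DESeq2, where 129 (0.909%) and 144 genes had an unadjusted p under 0.05.

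**Figure D2:**
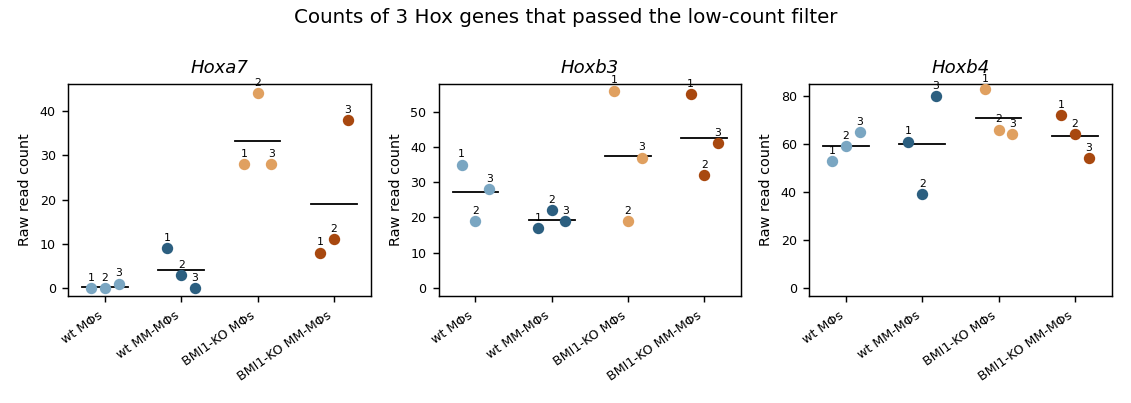
Raw read counts of Hoxa7, Hoxb3 and Hoxb4, which passed the low-count filter, by group; each point is a library marked with its replicate number and the line is the mean of 3. Hoxa7 has 28 to 44 counts in BMI1-KO MΦs against 0 to 1 in wt MΦs, while Hoxb4 overlaps in all groups.

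The other members with reads were below the filter of the fits by group. They were Hoxa4, with 67 counts in all, and 25 genes with under 60 counts in all and no more than 14 in any library. Those given library by library below were picked after their counts were seen, apart from Hoxa4. Hoxa4, a central gene, had 0, 0 and 4 counts in wt MΦs and 7, 4 and 1 in wt MM-MΦs, against 2, 9 and 8 in BMI1-KO MΦs and 17, 7 and 8 after their co-culture. The BMI1-KO libraries were higher within MM-MΦs by CPM, but over both cultures the genotypes overlapped. On summed counts its log2 fold change was 1.67 (SE 0.45, edgeR adjusted p = 0.681). Of its exon bases, 16.0% are shared with the opposite-strand gene Gm29430, which had 0 counts in wt and 9 in BMI1-KO libraries.

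Hoxa5 (chr6:52201754-52204587), which acts in lung and axial patterning and in blood progenitors, had 0, 0 and 2 counts in wt MΦs and 2, 1 and 0 in wt MM-MΦs, against 7, 9 and 6 in BMI1-KO MΦs and 4, 6 and 5 after their co-culture. All 6 BMI1-KO libraries lay above all 6 wt libraries. Its log2 fold change on summed counts was 2.82 (SE 0.55) and did not pass (edgeR adjusted p = 0.444, DESeq2 adjusted p = 0.167). It shares no exon base with another annotated gene.

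Hoxb7 (chr11:96286623-96290162), also free of shared exon bases, was listed at 0 in all 6 wt libraries. The BMI1-KO libraries held 4, 7 and 14 counts as MΦs and 1, 3 and 11 as MM-MΦs, so again the genotypes did not overlap. Against a floor of 3 counts over the 6 wt libraries, its level was at least 13.5-fold higher in BMI1-KO libraries. The neighbouring Hoxb6 had 0 counts in wt and 15 in BMI1-KO libraries, found in 5 of 6 of them, which is at least 5.06-fold higher against that floor. Hoxb5 had 0 and 14 counts, found in 3 of 6 BMI1-KO libraries, or at least 4.72-fold higher. The floor leaves out the counting error of the BMI1-KO reads, and with the error of both counts the 95% lower limits of these ratios were 10.48 for Hoxb7, 3.63 for Hoxb6 and 3.36 for Hoxb5. These 3 adjacent central genes of the Hoxb cluster had no read in wt, although Hoxb4 beside them had 357 counts there.

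In the Hoxa cluster, the anterior gene Hoxa3 had 2 counts in wt and 35 in BMI1-KO libraries, a 17.7-fold ratio (95% counting interval 4.55 to 152). Of its exon bases, 27.1% are shared with other genes, most of them on the opposite strand. Hoxa10, a posterior gene that takes part in myeloid differentiation, had 2 and 29 counts, a ratio of 14.7 (3.71 to 127), and a read in all 6 BMI1-KO libraries. Hoxa9, whose product promotes the growth of blood progenitors, had 4 and 17 counts, a ratio of 4.30 (1.40 to 17.6), but 11 of its BMI1-KO reads came from BMI1-KO MM-MΦs replicate 3. That library also held 13 of the 29 Hoxa10 counts and 11 of the 12 Hoxa6 counts of BMI1-KO. Hoxa6 did not differ beyond counting error, with a ratio of 2.43 (0.797 to 8.80). These intervals cover counting error alone, not the spread between libraries.

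The Hoxc and Hoxd genes held few reads. Hoxc4 had 5 counts in wt and 19 in BMI1-KO, a ratio of 3.85 (1.39 to 13.2). Of these 19, BMI1-KO MM-MΦs replicates 2 and 3 held 7 and 9. Hoxc6 had 4 counts in wt and 17 in BMI1-KO, a ratio of 4.30 (1.40 to 17.6). Hoxc8, which patterns the thoracic axis, was the reverse case, with 10 counts in 3 of 6 wt libraries and none in BMI1-KO. Hoxc11 had 6 of its 8 counts in wt MΦs replicate 2. Of the Hoxd genes, Hoxd8 had 6 and 8 counts, Hoxd4 had 5 counts in a single BMI1-KO MM-MΦ library and Hoxd10 had 1 count. Hoxd3 and Hoxd4 share 62.3% and 52.3% of their exon bases with same-strand genes, so reads in these parts could not be assigned to either gene. The 10 remaining genes with a read (Hoxa2, Hoxa11, Hoxb2, Hoxb8, Hoxb9, Hoxb13, Hoxc5, Hoxc9, Hoxc10 and Hoxc13) had 1 to 11 counts each.

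**Figure D3:**
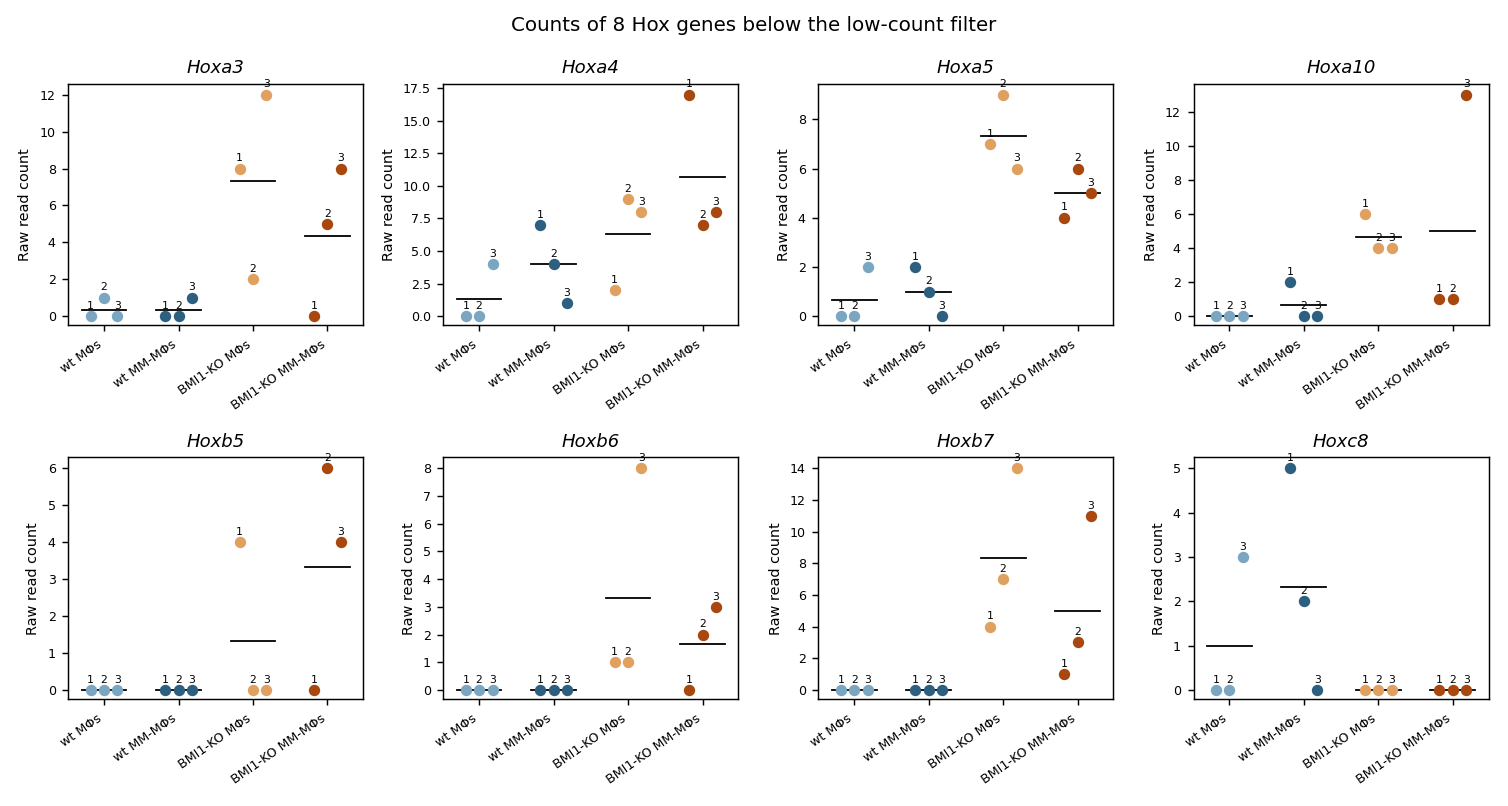
Raw read counts by group of 8 Hox genes below the low-count filter; each point is a library marked with its replicate number and the line is the mean of 3, with a separate axis for each gene. Hoxa5 and Hoxb7 are higher in all 6 BMI1-KO libraries than in any wt library, and Hoxc8 has reads in wt libraries alone.

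**Figure D4:**
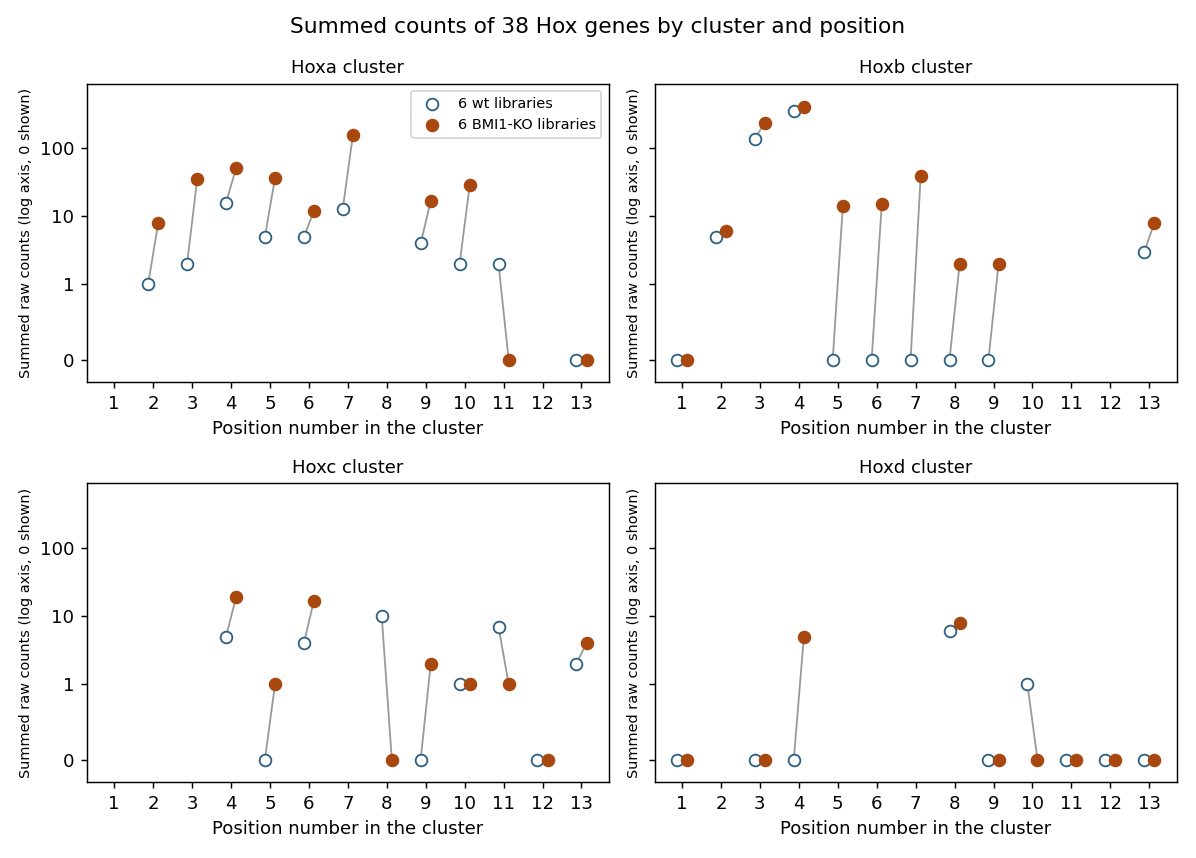
Summed raw counts of 38 Hox genes in the 6 wt (open) and 6 BMI1-KO (filled) libraries against their position number, 1 panel per cluster, on a log axis that also shows 0. In the Hoxa and Hoxb clusters the filled points lie above the open ones from position 2 to position 10, with small gaps at Hoxb2, Hoxb4 and Hoxa6, and no gene at position 11 or higher exceeds 8 counts in either genotype.

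The whole family was also described without a minimum count. In the edgeR fit of summed counts without a low-count filter, the log2 fold change was above 0 for 24 of the 29 Hox genes with a count, against 48.9% of 24317 genes. In that direction, 8 of 29 had an unadjusted p under 0.05, against 2.12%. In either direction it was 9 of 29, and 965 of the 24317 genes. The gene in the other direction was Hoxc8 (log2 fold change −4.79, edgeR unadjusted p = 0.0289). After adjustment 0 of 29 passed, against 0.0411% of all genes. Of the 29 genes, 8 had reads in BMI1-KO libraries alone and 3 in wt libraries alone (share over all genes not computed). This fixed their direction. The clustered genes are also neighbours measured in the same libraries, so these shares describe the members and are no test.

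For 7 of the 29 genes with a count, all 3 BMI1-KO MΦ libraries were above all 3 wt MΦ libraries by CPM (Hoxa3, Hoxa5, Hoxa7, Hoxa10, Hoxb6, Hoxb7 and Hoxc4), against 4.11% of 24317 genes. It was 4 in MM-MΦs (Hoxa4, Hoxa5, Hoxb3 and Hoxb7), against 3.45%. The reverse held for no Hox gene, against 3.48% and 3.23%. Over both cultures the 6 BMI1-KO libraries were above the 6 wt libraries for Hoxa5 and Hoxb7, which is 2 of 29 against 0.629% of all genes, and the reverse held for none, against 0.514%. Without the 4 libraries numbered 1 it was 7 genes (2.77% of all genes), without those numbered 2 it was 3 (1.86%) and without those numbered 3 also 3 (3.05%). Several of these genes have a count through their BMI1-KO reads alone or nearly so, and the clustered genes are neighbours on the chromosome measured in the same libraries, so these counts describe the members and are no test.

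Summed over the 36 Hox genes other than Hoxb3 and Hoxb4, which were set apart after their counts were seen, the level was 1.09 ± 0.90 CPM (SD, n = 3) for wt MΦs and 1.92 ± 1.28 for wt MM-MΦs, against 8.14 ± 1.20 for BMI1-KO MΦs and 7.57 ± 3.95 after their co-culture. Every BMI1-KO library, at 5.01 to 12.1 CPM, was above every wt library, at 0.0965 to 2.87 CPM. For Hoxb3 and Hoxb4 summed, the groups were 8.33 ± 0.40, 7.55 ± 1.59, 10.6 ± 3.3 and 10.4 ± 2.3 CPM in the same order, and the genotypes overlapped.

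Markers of other cells moved in part with these values. Stem and progenitor cell markers, of which 11 of 11 had a count, summed to 135 to 203 CPM in wt and 198 to 248 CPM in BMI1-KO libraries, ranges that overlap. Within that list Cd34, a surface protein of progenitors, had 98 to 212 counts in wt and 281 to 1050 in BMI1-KO libraries, with no overlap and the highest values in the libraries numbered 3 of BMI1-KO. Its log2 fold change on summed counts was 1.96 (SE 0.40, edgeR adjusted p = 0.450). Cd48, which holds most of the summed level of the list, had 1150 to 1895 counts in wt and 1086 to 2007 in BMI1-KO libraries (log2 fold change 0.05), and Gata2 had 3 to 14 and 4 to 12 (log2 fold change −0.42). The defining progenitor genes Kit and Flt3 had no more than 4 counts in any library, Elane no more than 6 and Mpo no more than 13. Neutrophil markers, 7 of 7 with a count, summed to 34.6 to 67.0 CPM in wt and 33.3 to 199.7 CPM in BMI1-KO libraries, and stromal markers, 11 of 12 with Twist2 at 0, to 18.6 to 55.0 and 13.3 to 58.0 CPM. Plasma cell markers, which 5TGM1 cells can also carry, had a count for 12 of 12 and summed to 298 to 730 CPM in wt and 304 to 534 CPM in BMI1-KO libraries. Among them Sdc1 had 284 to 1298 counts in wt and 77 to 207 in BMI1-KO libraries, without overlap (log2 fold change −2.31, SE 0.54, edgeR adjusted p = 0.587), and the antibody light chain gene Igkc had 8 to 157 counts in MΦs and 357 to 1327 in MM-MΦs. Endothelial markers, 5 of 5 with a count, summed to 13.6 to 60.2 CPM in wt and 21.2 to 74.1 CPM in BMI1-KO libraries. The part of these cells in the Hox counts was not tested, and in sorted bulk cells a different share of a cell type and a different amount of RNA per cell cannot be told apart.

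**Figure D5:**
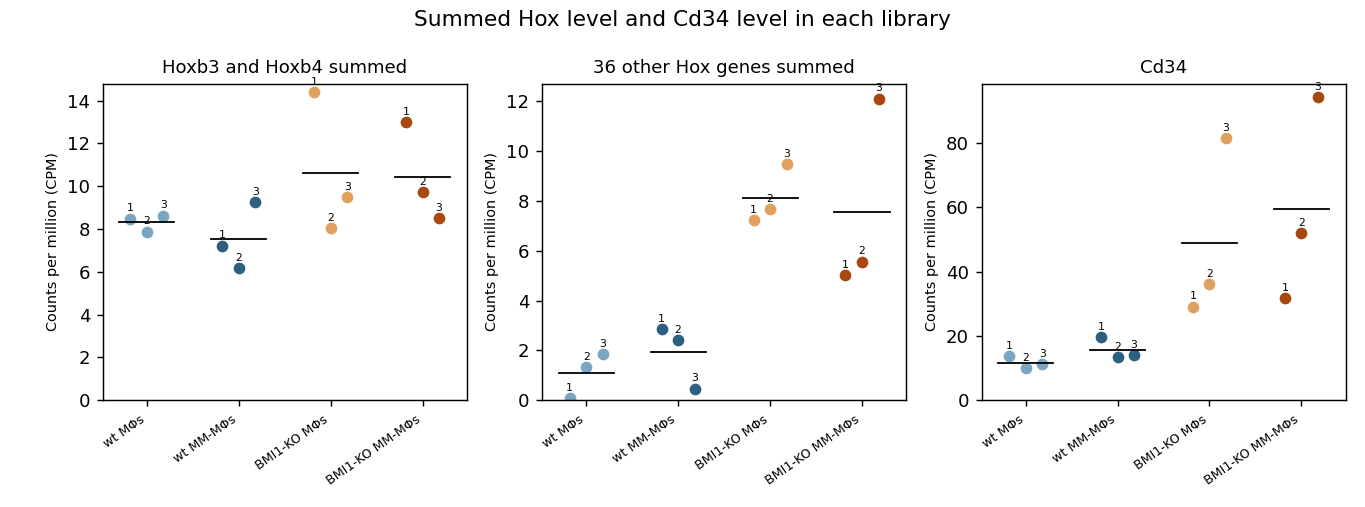
Levels (CPM) of Hoxb3 and Hoxb4 summed, of 36 other Hox genes summed and of Cd34 in each library; points are libraries marked with replicate numbers and lines are means of 3. The 36 genes lie at 5.01 to 12.1 CPM in BMI1-KO and at 0.0965 to 2.87 CPM in wt libraries, and Cd34 is also higher in every BMI1-KO library. Hoxb3 and Hoxb4 were set apart from the 36 genes after the counts were seen.

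The proteins that bind DNA together with Hox factors were measured as a separate list. Of 9 MEIS, PBX and PKNOX genes, 7 were tested and 0 passed in any comparison, with a median log2 fold change on summed counts of −0.03 against −0.01 over all genes. Pbx3, which forms complexes with HOXA9 and MEIS1, had the smallest adjusted p on summed counts. Its counts were 94, 119 and 228 in wt MΦs and 110, 118 and 234 in wt MM-MΦs, against 56, 74 and 76 in BMI1-KO MΦs and 59, 86 and 101 after their co-culture. Its log2 fold change was −0.96 (SE 0.29, edgeR adjusted p = 0.765). Meis1 had 37 to 118 counts in wt and 91 to 155 in BMI1-KO libraries, and its log2 fold change was 0.67 (SE 0.27, edgeR adjusted p = 0.99984). Meis1 overlapped between genotypes, whereas by CPM all 6 BMI1-KO libraries, at 5.80 to 9.06, lay below all 6 wt libraries, at 9.07 to 21.9, for Pbx3, with the nearest values almost equal.

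Of 8 upstream activators and ParaHox genes, Kmt2a, a methyltransferase that keeps Hox genes active, was the single gene tested. It had 2480 to 3299 counts and a log2 fold change of −0.13 on summed counts (SE 0.17, edgeR adjusted p = 0.99984). Men1, whose product works with KMT2A and is made in most cell types, was listed with 3 counts in 1 library and 0 in the rest, so a 0 in this table was read as listed at 0 and not as absence. Evx1 and Evx2, which lie at the ends of the Hoxa and Hoxd clusters, were listed at 0.

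Other genes inside the clusters, 46 in number and mostly noncoding, were mostly listed at 0: 13 had a count, 3 had at least 10, and none was tested. The one with the most counts, named after its values were seen, was Gm11539 with 16 counts in wt and 17 in BMI1-KO libraries. Within 200 kb outside the clusters, 13 of 51 genes were tested on summed counts and 0 passed, with a median log2 fold change of 0.03. The smallest adjusted p among them was that of Igf2bp1, an RNA-binding protein gene of fetal cells 188 kb from Hoxb13. It had 0, 0 and 0 counts in wt MΦs and 0, 0 and 3 in wt MM-MΦs, against 22, 31 and 89 in BMI1-KO MΦs and 14, 22 and 73 after their co-culture. The genotypes did not overlap, at an 84.7-fold ratio (95% counting interval 28.7 to 413). On summed counts its log2 fold change was 6.20 (SE 1.02, edgeR adjusted p = 0.340).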

How the data were processed

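The 12 RNA-seq libraries were placed in 4 groups by the genotype, culture and replicate number of their labels. Per the submitters' processing notes, the authors' tools were bcl2fastq 2.17.1.14 with cutadapt 1.9.1 for reads, HISAT2 2.0.1 for alignment to GRCm38 (mm10), HTSeq 0.6.1 for counting, and DESeq2. The sources used here give no strand setting, read length or annotation release. The authors deposited raw read counts per gene and, for each library, FPKM values with exon sizes and positions. All tests used the counts, and FPKM served to order genes by level. Library totals were 9662279 to 11142768 counts, and intervals and floors of 3 counts cover counting error only.

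Counts were fitted with edgeR 4.0.16 in R 4.3.3 (TMM scaling, quasi-likelihood test, 1 mean per group) on the 14197 genes that filterByExpr kept at its settings of 10 (count), 15 (total), 10 (large group) and 0.7 (proportion). For genotype over both cultures, counts of the MΦ and the MM-MΦ library with the same genotype and number were summed (14805 genes). Benjamini-Hochberg adjustment ran over all genes tested, with a threshold of 0.05. Alternatives were DESeq2 1.42.0, limma-voom (limma 3.58.1), other scalings and filters, the compared groups alone, the replicate number as a block, and each library left out. The fits were tested on simulated data, in which the changed genes all passed the low-count filter and libraries were drawn independently. That test does not cover genes with few reads or correlated libraries.

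Counts in every library were given for members with at least 60 counts or called by any test, and for Hoxa5 and Hoxb7, picked after their counts were seen. Of each other list up to 4 genes with the smallest adjusted p on summed counts could be named. Of the 39 members, 1 stayed in every fit but is not reported here. The members and lists were chosen with earlier results of these data known. The counts of genes whose genotypes do not overlap were defined after the counts were seen.

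Whether the replicate numbers pair libraries was checked by correlating deviations from group means across genes. Between the 2 cultures of a genotype, same-numbered libraries gave 0.55, 0.36 and 0.73 (wt) or 0.64, 0.18 and 0.60 (BMI1-KO). Their counts were therefore summed for the genotype comparison over both cultures. The fits by group, which gave the co-culture and interaction values, took no account of this pairing. It entered the co-culture comparisons only in an alternative, the replicate block within genotype. Between genotypes, numbers 1, 2 and 3 gave 0.48, −0.03 and 0.50 (MΦs) or 0.50, 0.03 and 0.51 (MM-MΦs). Number 2 showed no correlation, and the main fits assumed no pairing between genotypes. Exon overlap was taken from GENCODE M21, in which 99.5% of matched genes, and all 38 Hox genes reported, had the exon length of the files. Start regions came from RefSeq.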

Additional observations from a re-analysis of the deposited data

How the results depend on the processing

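Of 97 counts of Hox genes called under an alternative, 4 were above 0, each of them 1 gene, Hoxa7. In BMI1-KO MΦs against wt MΦs the count was 1 in DESeq2 and 1 with the replicate block over all 4 groups. That block called 1.45% of all genes (Hoxa7 log2 fold change 6.24, edgeR adjusted p = 0.0216). It assumes a pairing between genotypes, where same-numbered libraries were correlated for numbers 1 and 3 but not for number 2. For BMI1-KO against wt over both cultures the count was 1 in DESeq2 and 1 in the fit to all 12 libraries. With the replicate block on summed counts it was 0 (Hoxa7 edgeR adjusted p = 0.132). Leaving out a library gave 0 calls in every comparison, as did, in the 3 comparisons between genotypes, leaving out the 4 libraries of each number in turn, an alternative chosen after seeing the data. The replicate block within genotype, which follows the pairing of MΦ and MM-MΦ libraries, gave 0 calls in both co-culture comparisons. Across its alternatives the Hoxa7 log2 fold change in MΦs was 5.53 to 8.04, with adjusted p from 0.00228 to 0.663. Of 282 log2 fold changes of single genes, 266 kept their direction and 16 reversed, all of them of Hoxb3 or Hoxb4. Hoxa4, Hoxa5 and Hoxa7 passed the filter through their BMI1-KO reads, so their direction between genotypes could hardly reverse. For co-culture in wt, Hoxb4 gave −0.000975 with library totals alone, −0.0034 in limma-voom and −0.0012 with the replicate block within genotype. Leaving out 1 library moved Hoxb4 from −0.17 to 0.22 there. It moved Hoxb4 from −0.058 to 0.33 between genotypes in MM-MΦs, Hoxb3 from −0.0216 to 0.81 between genotypes in MΦs, Hoxb4 from −0.30 to 0.0569 and Hoxb3 from −0.11 to 0.71 with co-culture in BMI1-KO, and the Hoxb4 interaction from −0.35 to 0.039. The cause was not tested. The number of Hox genes with counts was 29 at 1 count, 18 at 10 counts and 10 with a count in every library of a group. Single low genes rest on few reads, so small differences between groups could not be detected at these totals.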
